A study of Sus scrofa with 2 samples.

Results

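The family of miR-148a, miR-148b and miR-152 was followed through the miRNA profiles of a glycolytic and an oxidative muscle of the pig. The family was taken as every pig entry named miR-148a, miR-148b or miR-152, both arms of each precursor, and 6 of the 668 entries of the table met that rule (3 of the 3p arm and 3 of the 5p arm). Both muscles, the glycolytic *longissimus dorsi* (LDM) that runs along the back and the oxidative *psoas major* (PMM) of the loin, came from 3 unrelated female Landrace pigs of 210 days, which had been fasted for 24 h. Total RNA of the pigs was pooled for each muscle, so there was 1 small RNA library per muscle, the spread between pigs was not measured, and no p-value can be given for a difference. Every interval below is a 95% interval for the counting error of these libraries alone.

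A miRNA gene is transcribed into a hairpin from which a short duplex is cut. One strand of that duplex, the guide, is usually kept by an Argonaute protein and pairs with mRNAs through its seed, bases 2 to 8, while the other, the passenger, is mostly degraded. miRNAs with the same seed can repress overlapping sets of mRNAs, so the 3 genes of this family act partly as sources of a single activity. In human and mouse cells the family is known for repressing DNMT1, the maintenance DNA methyltransferase, and miR-148a for repressing the LDL receptor in liver and for promoting myoblast differentiation in mouse through ROCK1.

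The consensus sequences are shown because they define the family and because the small differences between them bear on how reads can be told apart. They are printed 5′ to 3′ as DNA letters under their full names (ssc for the pig), as in the deposited table, with bases 2 to 8 in capitals:
ssc-miR-148a-3p: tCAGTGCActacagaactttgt
ssc-miR-148b-3p: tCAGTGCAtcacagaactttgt
ssc-miR-152-3p: tCAGTGCAtgacagaacttgg
ssc-miR-148a-5p: aAAGTTCTgagacactccgact
ssc-mir-148b-5p: gAAGTTCTgttatacactcaggct
ssc-miR-152-5p: aGGTTCTGtgatacactccgact

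The 3p arms shared the seed CAGTGCA and began with T, whereas the 5p arms began with A or G. Positions are counted from 1 at the 5′ end. From miR-148a-3p to miR-148b-3p there were 2 substitutions, C9T and T10C, just past the seed. From miR-148a-3p to miR-152-3p there were 3 over the 21 bases compared, C9T, T10G and T20G. The 5p arms were less alike. miR-148a-5p and miR-148b-5p shared AAGTTCT at bases 2 to 8, and miR-152-5p had GGTTCTG there. No entry outside the family carried CAGTGCA at bases 2 to 8, nor the seed of a 5p member. The nearest sequence outside the family was 7 edits away from miR-148a-3p and 7 from miR-148b-3p, against 2 edits between the pair of them, so that the closest entries to each 3p member were the other members. The sources used here do not give how the authors divided reads between near-identical entries, and the split between miR-148a-3p and miR-148b-3p is uncertain to that extent.

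The 7 bases CAGTGCA, searched on the strand of the miRNA only, occurred in 12 of the 668 entries (1.80%), of which 9 lay outside the family. In 4 of those 9 they stood at bases 1 to 7, 1 base earlier than in the family, which gives these entries a different seed. Examples, with CAGTGCA in capitals, are shown to mark that shift:
miR-130a-3p: CAGTGCAatgttaaaagggcatt
miR-130b-3p: CAGTGCAatgatgaaagggcat

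The genes of the family lie in similar surroundings. By the RefSeq gene list for Sscrofa11.1, in which all 3 genes were found by symbol, MIR148B lies within COPZ1 and MIR152 within COPZ2, paralogous genes for a subunit of the coatomer that coats transport vesicles. MIR148A lies within no annotated gene. Beside each stand a gene of the NFE2 family of transcription factors and a gene for a heterochromatin protein of the CBX (HP1) group. These neighbours are NFE2L3 and CBX3 at MIR148A, NFE2 and CBX5 at MIR148B, and NFE2L1 and CBX1 at MIR152. That assembly is not the authors' build (Sscrofa10.2), so no coordinates are given.

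The LDM library held 8750049 normalised reads and the PMM library 8556672. Muscle identity was checked first because the text of the RNA protocol names adipose tissue while the samples are labelled as muscle. The skeletal muscle miRNAs miR-1, miR-133a, miR-133b and miR-206 together made up 68.6% of reads in LDM and 50.9% in PMM, and miR-499-5p, encoded in a slow myosin gene, stood at 1673 normalised reads in LDM and 20415 in PMM. Among entries whose mean reached 10 RPM (reads per 1000000 of the library total), 132 of 185 had a higher deposited value in PMM (71.4%) and 53 a lower one (28.6%). The median log2 ratio of PMM to LDM, computed with 1 RPM added to both values, was 0.35 in these 185 entries, and ratios of members are therefore also given relative to it.

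The family as a whole was more abundant in the library of the oxidative muscle. Its entries took up 3.87% of reads in LDM (3.85 to 3.88) and 7.39% in PMM (7.37 to 7.40). Summed over members it stood at 338262 normalised reads in LDM and 632042 in PMM, a ratio of 1.87 (1.86 to 1.88). On the log2 scale that ratio was 0.90, against the median of 0.35 over the 185 entries. When all entries were grouped by bases 2 to 8, the seed CAGTGCA ranked 4 in either library, behind the seeds of miR-1, miR-133a and miR-378. In bulk tissue a change in the number of cells of a type and a change in the RNA of each cell cannot be told apart.

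miR-148a-3p, the guide strand of MIR148A, carried nearly all of this. It had 320973 normalised reads in LDM and 613787 in PMM, ranked 4 in each library, and was 1.91-fold higher in PMM (1.90 to 1.92). Next below it in level was miR-10b-5p, at 296869 in LDM and 316039 in PMM. On the log2 scale the ratio of miR-148a-3p was 0.94 with the deposited values and 0.58 against the median of the 185 entries. It was higher in PMM in both readings.

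miR-152-3p, the guide strand from within COPZ2, moved the same way at a far lower level. It had 3788 normalised reads in LDM and 6670 in PMM, 1.76-fold higher in PMM (1.69 to 1.84). Its log2 ratio was 0.81, or 0.46 relative to the median.

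miR-148b-3p, the guide strand from within COPZ1, was the member that went the other way. It had 12789 normalised reads in LDM and 10967 in PMM, and was 1.17-fold higher in LDM (1.14 to 1.20). It ranked 27 in LDM and 34 in PMM. On the log2 scale its ratio was −0.22 with the deposited values and −0.57 against the median. Centring multiplies every PMM value by the same factor. The distance of miR-148b-3p from miR-148a-3p, 1.16 on the log2 scale, hardly depends on it. miR-148b-3p was thus lower in the library in which miR-148a-3p was higher.

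**Figure D1:**
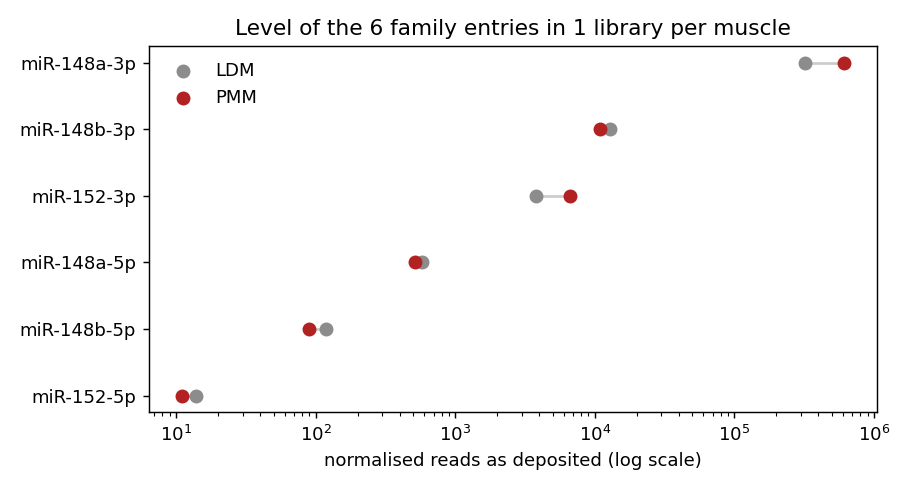
Normalised reads as deposited (horizontal axis, log scale) of the 6 family entries in LDM (grey) and PMM (red), 1 library per muscle, with no error bars. miR-148a-3p (320973 and 613787) lies far to the right of the other entries, and only miR-148a-3p and miR-152-3p have the PMM point on the right.

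The passenger strands were all lower in PMM by their deposited values, but at that scaling none by more than its counting error. After centring on the median, the log2 ratios were −0.51 for miR-148a-5p, −0.68 for miR-148b-5p and −0.38 for miR-152-5p. The 1 RPM was added after the scaling, so these low entries moved by less than the guide strands did. That centring would move the intervals of miR-148a-5p and miR-148b-5p wholly to the LDM side, but not that of miR-152-5p. Folds and intervals below are for the deposited values. miR-148a-5p had 579 normalised reads in LDM and 517 in PMM, 1.12-fold higher in LDM (0.988 to 1.27). miR-148b-5p had 119 in LDM and 90 in PMM, 1.32-fold higher in LDM (0.983 to 1.77). miR-152-5p had 13.8 in LDM and 11 in PMM, from 12 and 11 reads, 1.26-fold higher in LDM with an interval from 0.507 to 3.14. Summed, the 5p arms stood at 711 normalised reads in LDM and 618 in PMM, 1.15-fold higher in LDM (1.03 to 1.29). This sum lay outside its counting error, while the 3p arms together were 1.87-fold higher in PMM (1.86 to 1.88).

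Against the other miRNAs these ratios were moderate. Of the 6 members 5 passed the limit of 10 RPM, and miR-152-5p did not. None of the 5 was 2-fold apart by the log2 ratio, whereas 52 of the 185 entries were (28.1%), 40 of them with the higher value in PMM (21.6%) and 12 with the lower (6.49%). Centring on the median gave 24 and 20 in place of 40 and 12. At a limit of 1.5-fold, miR-148a-3p and miR-152-3p were higher in PMM (2 of 5, against 40% of the 185 entries) and none was lower (against 13.5%). Neither call held after centring on the median, a combination added after the data were seen, where none of the 5 was 1.5-fold higher (against 23.8% of the entries). miR-148b-5p was then past the limit on the lower side (−0.68 on the log2 scale, against 21.6%). miR-148a-3p fell only just short of the limit after centring (0.583 on the log2 scale), as did miR-148b-3p on the lower side (−0.573). Of the 5 members, 3 were lower in PMM by the deposited values, against 28.6% of the 185 entries. With so few members these shares describe the entries and nothing beyond them.

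**Figure D2:**
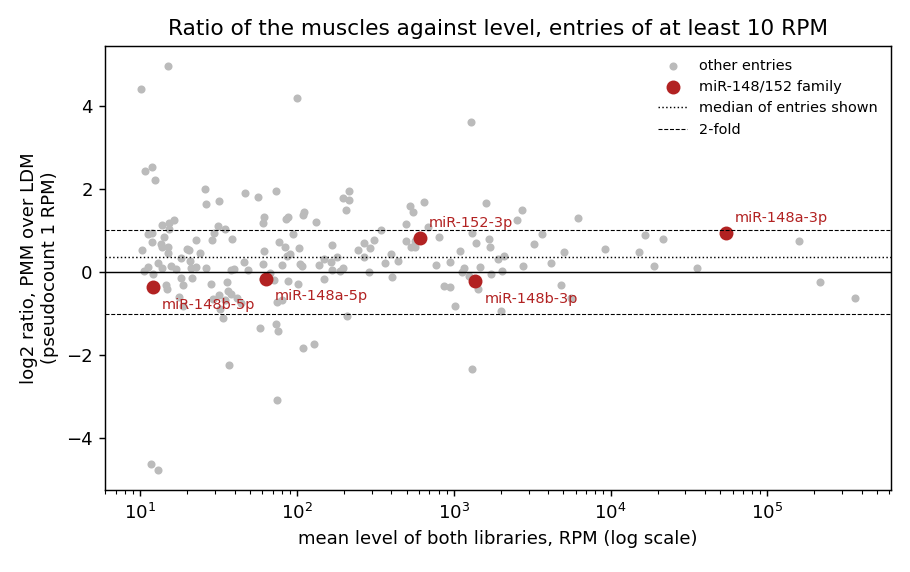
Log2 ratio of PMM to LDM with 1 RPM added to both values (vertical axis) against the mean level of both libraries in RPM (horizontal axis, log scale) for the 185 entries of at least 10 RPM, with the 5 family entries in red. All 5 lie between the dashed lines that mark a 2-fold difference, with miR-148a-3p (0.94) and miR-152-3p (0.81) above the dotted median of 0.35 and the others below 0.

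The division of the family among its members is free of the scaling between libraries. miR-148a-3p took 94.89% of the family reads in LDM (94.81 to 94.97) and 97.11% in PMM (97.07 to 97.15). miR-148b-3p held 3.78% in LDM (3.71 to 3.85) and 1.74% in PMM (1.70 to 1.77), the largest loss of share of any member. miR-152-3p kept nearly the same share, with 1.12% in LDM (1.08 to 1.16) and 1.06% in PMM (1.03 to 1.08). The 5p arms together held 0.210% in LDM (0.194 to 0.227) and 0.0978% in PMM (0.0902 to 0.106). Of the share that miR-148a-3p gained in PMM (2.22 percentage points), the loss of miR-148b-3p (−2.05) made up most. Without MIR148A, the remaining 4 entries summed to 16710 normalised reads for LDM and 17738 for PMM, a ratio of 1.06 (1.04 to 1.09).

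Of the 9 seeds with at least 3 entries of 10 RPM or more, the seed of miR-148 and miR-152 was the most unevenly shared. Its leading member held 95.1% of its 3p reads in LDM and 97.2% in PMM, followed by the seed of miR-29a-3p with 91.8% and 92.0%. Seeds outside these 9 were not ranked, and some were also held mostly by a single entry. miR-1-3p had 3817996 of the 3928535 normalised reads of its seed in LDM and 2454768 of 2608018 in PMM. The log2 ratios of the members with the miR-148 seed spanned 1.16, which ranked 5 among the 9 seeds, whose spans ran from 0.49 to 2.88. Members with a common seed thus differed in ratio here no more than in several other families, and no test of that difference was possible.

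Ratios between the 3 genes were compared within each library. Among the guide strands, miR-148a-3p outnumbered miR-148b-3p by 25.1 to 1 in LDM (24.6 to 25.6) and by 56.0 to 1 in PMM (54.9 to 57.0). That ratio was 2.23 times as large in PMM (2.17 to 2.29). miR-148a-3p outnumbered miR-152-3p by 84.7 to 1 in LDM (81.9 to 87.7) and 92.0 to 1 in PMM (89.8 to 94.3), only 1.09 times as large in PMM (1.04 to 1.13). miR-148b-3p stood at 3.38 to 1 over miR-152-3p in LDM (3.25 to 3.51) and 1.64 to 1 in PMM (1.59 to 1.70). MIR148A and MIR152 therefore kept nearly the same proportion in these libraries, while the guide of MIR148B, the gene within COPZ1, was lower in PMM against both.

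The passenger strands did not show that shift beyond their counting error. miR-148a-5p outnumbered miR-148b-5p by 4.88 to 1 in LDM (3.94 to 6.10) and 5.74 to 1 in PMM (4.58 to 7.27), a change of 1.18 times (0.864 to 1.60). That interval does not reach the 2.23 of the guide strands. miR-148b-5p against miR-152-5p stood at 8.58 in LDM and 8.18 in PMM, but the change of 0.953 times had an interval from 0.401 to 2.27, because miR-152-5p had 12 and 11 reads. The order of the loci was the same on both arms, with MIR148A highest and MIR152 lowest in either muscle. The distances were not, since MIR148A led MIR148B by far more on the 3p arm than on the 5p arm.

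**Figure D3:**
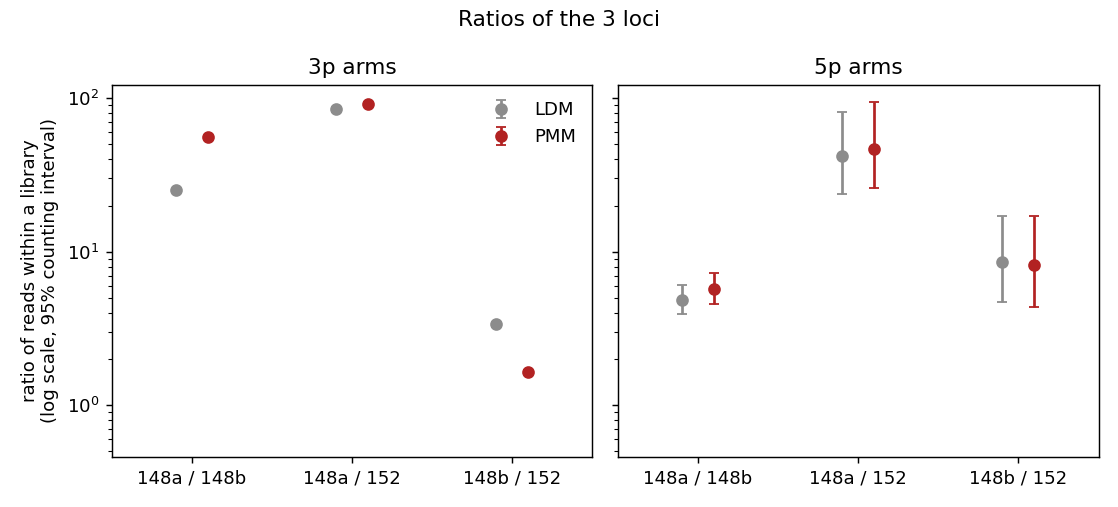
Ratio of reads between the entries of 2 loci within a library (vertical axis, log scale) for the 3p arms (left) and the 5p arms (right), LDM in grey and PMM in red, with 95% counting intervals. On the 3p arms the ratio of miR-148a to miR-148b moves from 25.1 to 56.0 and that of miR-148b to miR-152 from 3.38 to 1.64, while on the 5p arms the intervals of the muscles overlap for every pair.

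The 3p arm was the major strand at each of the 3 loci. At MIR148A there were 555 guide reads for each passenger read in LDM (508 to 606) and 1187 in PMM (1089 to 1297). The preference for the guide was thus 2.14 times as large in PMM (1.89 to 2.42), with the guide higher and the passenger lower by their deposited values. At MIR148B the ratio was 108 in LDM (88.9 to 132) and 122 in PMM (99.0 to 151.7), a change of 1.13 times that was within its counting error (0.850 to 1.5003). At MIR152 it was 274 in LDM (157 to 531) and 606 in PMM (339 to 1215), a change of 2.21 times whose interval, from 0.974 to 5.01, just held 1.

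The change at MIR148A was 1.90 times that at MIR148B (1.39 to 2.58), while MIR148A and MIR152 could not be separated at this depth (0.969 times, 0.423 to 2.22). Of the 120 pairs of 5p and 3p entries listed in both libraries, 29 had the major arm higher and the minor arm lower in PMM (24.2%), as did 2 of the 3 family loci. Over all 120 pairs the strand ratio of MIR148A ranked 18 in LDM and 11 in PMM, and its change ranked 19. Among the 47 pairs with at least 50 reads of the minor arm in each library, a limit chosen after the data were seen, it ranked 5 in LDM and 2 in PMM, where only that of miR-143 was larger. Its change ranked 5 of the 47, with miR-532 first. The median change of these pairs was 0.06 on the log2 scale, with quartiles of −0.54 and 0.77, against 1.10 for MIR148A. A change of this size was therefore in the upper part of what other miRNAs showed, but not beyond it.

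The first base is a feature of the guide strand that was not used to choose the family, since Argonaute proteins are known to favour a uridine there. In the 3 family loci the 3p arm began with T and the 5p arm did not. The 3p arms are near-identical in sequence, so these loci are not 3 independent observations. Over the 120 pairs, 63 major arms and 22 minor arms began with T. A first T was thus more common on major than on minor arms in the table, and the family had it on its major arms only. How often both features met in the same pair was not counted.

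**Figure D4:**
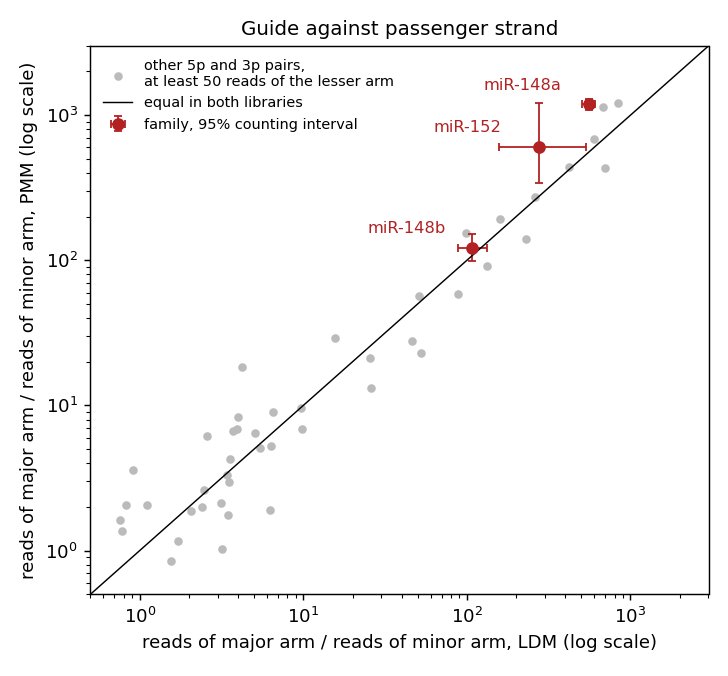
Reads of the major arm for each read of the minor arm (the arm with more reads over both libraries against the other) in LDM (horizontal axis) and PMM (vertical axis), both on log scales, for the family (red, with 95% counting intervals) and for other pairs with at least 50 reads of the minor arm in each library (grey). miR-148a lies above the line of equality (555 in LDM and 1187 in PMM), miR-148b near it, and the interval of miR-152 is wide because its 5p arm had 12 and 11 reads.

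The miRNAs with a ratio most like that of miR-148a-3p were looked for among the 82 pig entries of at least 100 RPM outside the family, by the difference in log2 ratio over these 2 libraries. They were let-7i-5p (1.92-fold higher in PMM), miR-24-3p (1.89-fold, an entry that joins 2 precursors), miR-27b-3p (1.85-fold), miR-27a-3p (2.02-fold) and miR-199b-5p (1.80-fold). With 2 libraries such a likeness is a single number per miRNA.

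miRNAs of other cell types were measured beside the family. Of 20 markers of endothelium, fibroblasts, smooth muscle, leukocytes, red blood cells, liver, nerve and epithelium, 11 were found by name. The nerve marker miR-124 was missed by that match. It is listed as miR-124a-3p (mean 2.53 RPM, log2 ratio 0.90) and is not in the counts here. Of the 11, 10 had a higher deposited value in PMM (against 71.4% of the 185 entries). That share covers entries of at least 10 RPM, and miR-122-5p, miR-205-5p and miR-429-3p lay under this limit. The 11 together took up 2.04% of reads in LDM and 3.57% in PMM, mostly from miR-143-3p (136536 and 236740 normalised reads). In PMM the endothelial miR-126-3p was 1.63-fold and the fibroblast miR-199a-5p 2.37-fold higher, against 1.91-fold for miR-148a-3p. The smooth muscle miR-143-3p and miR-145-5p were 1.73-fold and 1.09-fold higher, and the red blood cell miR-451-5p 1.18-fold. The leukocyte miR-142-3p and miR-155-5p were 1.43-fold and 1.86-fold higher, and the nerve miR-9-5p 5.65-fold, on 28 and 182 reads. The leukocyte miR-142-3p (379 and 623 reads) and the liver miR-122-5p (7 and 10 reads) were low, and of the epithelial markers miR-429-3p had 3 reads in PMM and stood at 0 in LDM, while miR-205-5p had 28 and 11 reads, 2.93-fold higher in LDM. The part of these cells in the levels of the family was not tested.

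Finally, the family was set beside other miRNAs reported to repress DNA methyltransferases, since the study measured methylation in the same muscles. Of 10 miRNAs with such reports, the 3 guide strands of the family included, 9 were found. Of the 9, 6 were higher (against 71.4% of the 185 entries) and 3 lower in PMM. Their median log2 ratio was 0.35, the same as that of all 185 entries. Among them 1 was at least 2-fold higher (against 21.6%) and 1 at least 2-fold lower (against 6.49%). miR-101-3p, known to repress EZH2 and DNMT3A in human cells, was 2.48-fold higher in PMM, and miR-143-3p 1.73-fold. miR-185-5p, reported against DNMT1, was 5.03-fold higher in LDM (539 and 107 normalised reads). miR-29a-3p, known for repressing DNMT3A and DNMT3B, was 1.15-fold higher in PMM. Without the family the median was 0.28, with 4 of 6 higher.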

How the data were processed

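Small RNA of 10 to 40 nt was read single-end (36 bp) from 1 library per muscle, each a pool of RNA from 3 pigs. The submitters' processing notes name the build Sscrofa10.2, and no source used here gives the mapper, the miRNA reference or how values were normalised. The deposited signal is read numbers that the authors had normalised. LDM values were whole multiples of 1.15 units and PMM values whole numbers in all rows but that of miR-23a-3p (tolerance 0.001), and the smallest value was 3 such steps, so reads were taken as value divided by step. The authors' deposited p-value column, which compares the libraries, was not used.

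Ratios carry no pseudocount, and log2 ratios have 1 RPM (8.65 units of the mean library) added. Intervals are exact conditional binomial for ratios, Clopper-Pearson for shares and log-odds for the change of a ratio. Reads had no molecular identifiers, so intervals cover counting error only. The rule for naming miRNAs took every member, entries sharing a seed, the 5 nearest ratios, neighbours in level and members of miRNA lists. Members and lists were chosen with earlier results of these data known. Scripts were tested on simulated data. The tools were scipy 1.17.1, numpy 2.4.6, pandas 2.3.3 and matplotlib 3.10.9 under Python 3.11.15.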

Additional observations from a re-analysis of the deposited data

How the results depend on the processing

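No alternative turned the direction of any of the 6 members. On the log2 scale the ratio of miR-148a-3p was 0.97 after scaling to the library total, 0.58 after centring on the median, 0.65 by the trimmed mean and 0.56 by the total that leaves out the 10 highest entries. For miR-148b-3p the last 3 scalings gave −0.57, −0.51 and −0.60, and for miR-152-3p 0.46, 0.53 and 0.44, since each multiplies every PMM value by the same factor. Entries at least 2-fold higher and lower in PMM (40 and 12) numbered 24 and 20 after centring, 23 and 23 by the total that leaves out the 10 highest, 84 and 35 without the level filter, 19 and 4 among entries of 100 RPM or more, and 74 and 25 at a limit of 1.5-fold. Among the 3p arms alone miR-148a-3p took 95.1% in LDM and 97.2% in PMM. Ratios between loci stayed within their intervals when both arms were summed. The change of the miR-148a strand ratio ranked 19 of 120 pairs, 17 of the 100 whose entries each name 1 precursor, and 5 of the 47 with at least 50 reads of the minor arm. The planned addition of seed-sharing entries was not run because none was found outside the family, and that of offset sequences because no hairpin sequence was at hand. No paired analysis was possible because each muscle had 1 library. Depth limits miR-152-5p most, at 12 and 11 reads.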

Other observations

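Further lists that hold miR-148a were described by their values. Of 12 miRNAs reported to act on lipoprotein and cholesterol genes, 7 were found, of which 6 had a higher deposited value in PMM (against 71.4% of the 185 entries) and 1 a lower one, with a median log2 ratio of 0.89 against 0.35 for all 185 entries. Without the family the median of the other 6 was 0.52. miR-27b-3p went from 100896 to 186417 normalised reads, and miR-130b-3p from 84.0 to 363, whereas miR-128-3p hardly moved (2490 and 2505). The lower one was miR-185-5p, 5.03-fold higher in LDM (539 and 107 normalised reads). miR-122-5p, counted among the higher ones, had 7 and 10 reads and lay under the limit of 10 RPM. Of 14 miRNAs reported to promote myoblast differentiation, 9 were found, with 6 higher (against the same 71.4%) and 3 lower in PMM. Their median was 0.47, against 0.35 for all 185 entries. Without miR-148a-3p, 5 of the other 8 were higher and the median was 0.34. The 3 lower ones were miR-1-3p, miR-133a-3p and miR-181a-5p, which was 1.92-fold higher in LDM.

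The entries that carry CAGTGCA at another position differed widely in ratio. In PMM miR-130a-3p was higher by 1.95-fold (1.61 to 2.38) and miR-130b-3p by 4.32-fold (3.35 to 5.64), both with CAGTGCA at their first base. miR-139-5p, in which it begins at base 5, was 1.62-fold higher in LDM (1.36 to 1.92). Of the 9 entries, only miR-139-5p and miR-106a-5p, the latter with 4 reads in each library, had a lower deposited value in PMM. Among the 185 entries of at least 10 RPM, 28.6% had a lower one.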
